A study of Mus musculus with 34 samples.

Results

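The genes described here are 39 genes of fatty acid oxidation, ketone body metabolism and the PPAR-alpha programme, taken by their symbols from the 35976 gene symbols measured in mouse liver. The members comprise 2 regulators, 6 genes of the carnitine shuttle, 10 of mitochondrial beta-oxidation, 3 that pass electrons to the respiratory chain, 9 of peroxisomal beta-oxidation and peroxisomes, 1 of ketone bodies, 5 acyl-CoA thioesterases and 3 other PPAR-alpha targets. All 39 passed the filter on low values and were tested. Total liver RNA was sequenced from 34 mice that each received an adeno-associated virus (AAV) with a guide RNA for Cas9. The guides were directed at Bcl6 (5 livers), Irs1 (5), Smyd2 (6), Srebf1 (5) or Tbx3 (7), and these livers are called knockouts (KO) after their labels. The 6 control livers received guides against GFP (sgGFP, 4 livers) or LacZ (sgLacZ, 2 livers), sequences foreign to the mouse. Knockouts and controls alike were C57BL/6 mice, homozygous for TetO-Cas9 (Cas9 under a tetracycline-responsive promoter) and for Rosa-rtTA (the transactivator that switches it on), and all ate a Western diet for 3 months, so no liver stands for an undisturbed or chow-fed state. Cas9 in such mice is not confined to hepatocytes by its promoter, and the labels give neither the sex nor the age of the mice nor the share of cells edited.

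In hepatocytes, long-chain fatty acids enter mitochondria as carnitine esters and are shortened by beta-oxidation, and the acetyl-CoA released feeds the citric acid cycle or ketone body synthesis. Very long-chain and branched fatty acids are shortened first in peroxisomes, which export the shorter products as carnitine esters or as free acids released by thioesterases. PPAR-alpha, the nuclear receptor encoded by Ppara, is activated by fatty acids and, paired with a retinoid X receptor, binds direct repeats of AGGTCA spaced by 1 base. Its targets include genes of each of these steps, and it is best known in liver for the response to fasting. BCL6, a transcriptional repressor, is known in mouse liver as an opponent of PPAR-alpha at shared regulatory sites, while IRS1 relays the insulin signal and SREBF1 drives fatty acid synthesis.

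Levels are in FPKM, which divides a gene's fragments by its length and by the size of its library, and the deposited values imply 2114037 to 3128827 counted reads per library. The targeted genes themselves passed the test in no knockout. The log2 change was 0.05 for Bcl6 in Bcl6 KO (adjusted p = 0.980), 0.33 for Irs1 in Irs1 KO (adjusted p = 0.165), -0.30 for Smyd2 in Smyd2 KO (adjusted p = 0.742), -1.06 for Srebf1 in Srebf1 KO (adjusted p = 0.0611) and 0.45 for Tbx3 in Tbx3 KO (adjusted p = 0.441; limma). Small insertions and deletions left by Cas9 need not lower the level of a transcript, so these values do not check the labels except where they fell. Srebf1 was at 499 to 632 FPKM in 4 of the 5 Srebf1 KO livers against 1095 to 2177 FPKM in the controls. Replicate 1 of the Srebf1 KO libraries, at 1908 FPKM, lies in the control range, unlike the other 4. Whether its label is right cannot be told from this value. A pair of libraries stood apart over the members. Smyd2 KO replicate 6 was the lowest liver of its group for 30 of the 39 genes, with a median difference of -0.48 (log2) from the other Smyd2 KO livers, and sgGFP replicate 3 was the lowest control for 25 genes, with a median difference of -0.42. Over all genes tested the same median differences were 0.06 and 0.11. Counts that these livers alter are given with and without them below.

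The members spanned a wide range of levels. Acaa1b, a peroxisomal thiolase, had the highest mean over the 34 livers at 3999 FPKM, and was followed by Cpt1a (2657 FPKM), the enzyme that commits long-chain fatty acids to mitochondria, by Ppara (2277 FPKM) and by Crot (1995 FPKM). Cpt1b, the muscle form of the same enzyme, was lowest at 4.98 FPKM. Acot1 (15.7 FPKM) and Pdk4 (18.2 FPKM) lay just above it. No member was at 0 in any liver. Genes from the lower part of this range differed most between group means: Acot3 differed 23.6-fold between its highest and lowest group mean, Abcd2 8.21-fold, Acot4 4.60-fold, Ucp2 4.29-fold, Pdk4 4.19-fold and Acot2 4.05-fold. By contrast Acadvl differed 1.11-fold, Cpt2 1.19-fold, Ppara 1.24-fold and Cpt1a 1.26-fold.

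**Figure D1:**
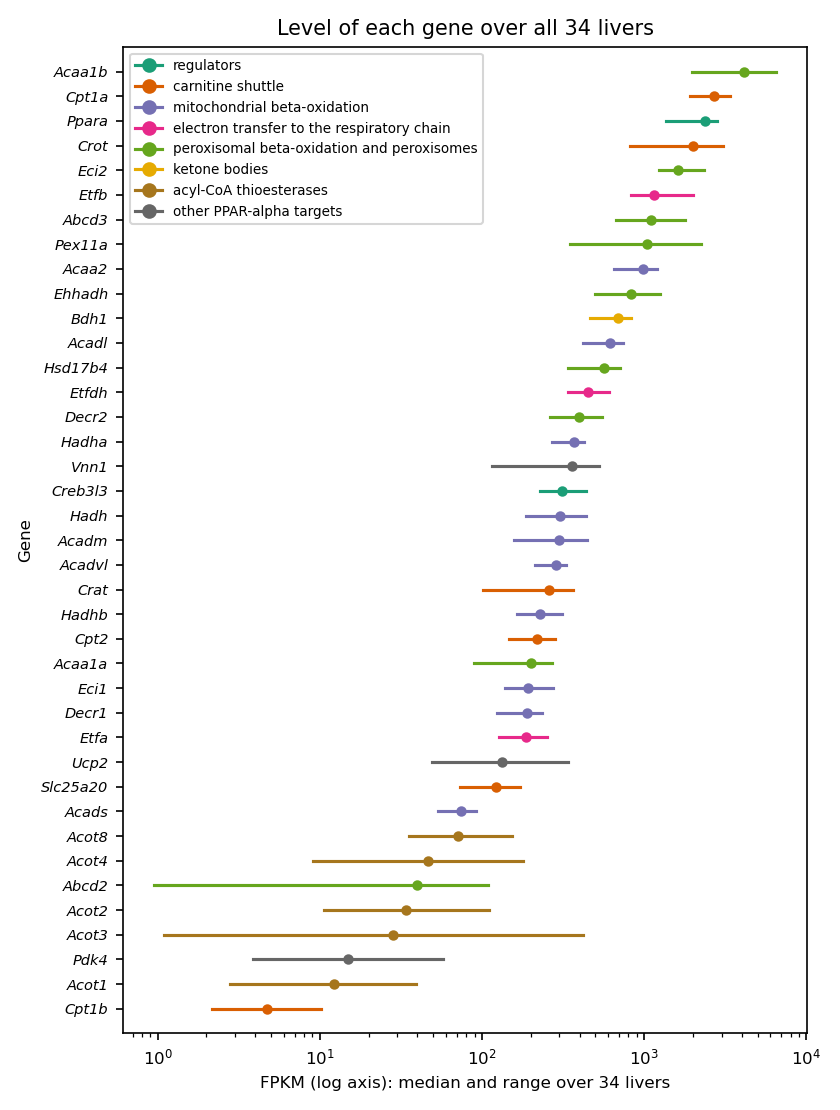
Level of each of the 39 genes in FPKM (log axis), with the median (point) and the range (line) over all 34 livers, coloured by role. Acaa1b, Cpt1a and Ppara lie at the top, and the widest ranges belong to Acot3 (1.10 to 420 FPKM) and Abcd2 (0.951 to 109 FPKM).

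Which of these genes differed between each knockout and the controls was asked with limma on log2(FPKM + 1), with p-values adjusted over all 19295 genes tested and a threshold of 0.05. In Irs1 KO livers 11 of the 39 genes were lower and 1 was higher, where 7.61% of all genes tested were lower and 3.24% higher (10.9% either way). Bcl6 KO livers had 5 lower and 1 higher, where 3.19% of all genes were lower and 2.95% higher (6.14% either way). In Srebf1 KO livers 1 was lower, where 0.181% of all genes were lower, and none was higher by limma, where 0.197% of all genes were (0.378% either way). At an unadjusted p under 0.05, 3 members (7.69%) were higher there, beside 5.01% of all genes. In Tbx3 KO livers 1 was higher, where 1.17% of all genes were higher, and none was lower by limma, where 1.37% of all genes were (2.54% either way). At an unadjusted p under 0.05, 5 members (12.8%) were lower there, beside 10.6% of all genes. In Smyd2 KO livers no member and no gene of all those tested passed limma's test (0%). At an unadjusted p under 0.05, 1 member (2.56%) was higher and 1 (2.56%) lower in Smyd2 KO livers, beside 3.85% and 3.32% of all genes. The 6 controls are shared by all 5 comparisons, so the comparisons are not independent of each other. The members also had smaller standard errors (SE) than all genes tested. Their median SE was 0.151 in Irs1 KO and 0.139 in Tbx3 KO, beside 0.263 and 0.242 for all genes. A change of a given size therefore passes more readily among the members, which limits what the shares of all genes can show.

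The median log2 change of the 39 genes was -0.27 in Irs1 KO livers, where the median of all genes tested was -0.12. It was -0.16 in Bcl6 KO livers beside -0.07 for all genes, and 0.05 in Srebf1 KO livers beside -0.05 for all genes. In Tbx3 KO livers it was -0.00978 beside -0.06, and in Smyd2 KO livers -0.00447 beside -0.00234. In Irs1 KO livers 32 of the 39 log2 changes were below 0, beside 12023 of the 19295 of all genes tested. The count in Bcl6 KO livers was 29 of 39, beside 11484 of 19295. Scaling each library to the median ratio of its genes took the median of all genes in Irs1 KO to -0.00527, a shift of over 0.1, and gave 8 lower members there. Of all genes called, 29.8% were higher without that scaling and 51.0% with it in Irs1 KO, 48.1% and 64.3% in Bcl6 KO, and 45.9% and 58.6% in Tbx3 KO. Genes for which every knockout liver lay beyond every control numbered 8 below and 1 above in Irs1 KO livers (5.24% and 2.21% of all genes) and 1 below and 3 above in Bcl6 KO livers (1.92% and 2.35%). There was 1 below and none above in Srebf1 KO livers (1.16% and 0.793% of all genes), 1 above and none below in Tbx3 KO livers (0.384% and 0.446%) and none in Smyd2 KO livers (0.161% below and 0.187% above).

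**Figure D2:**
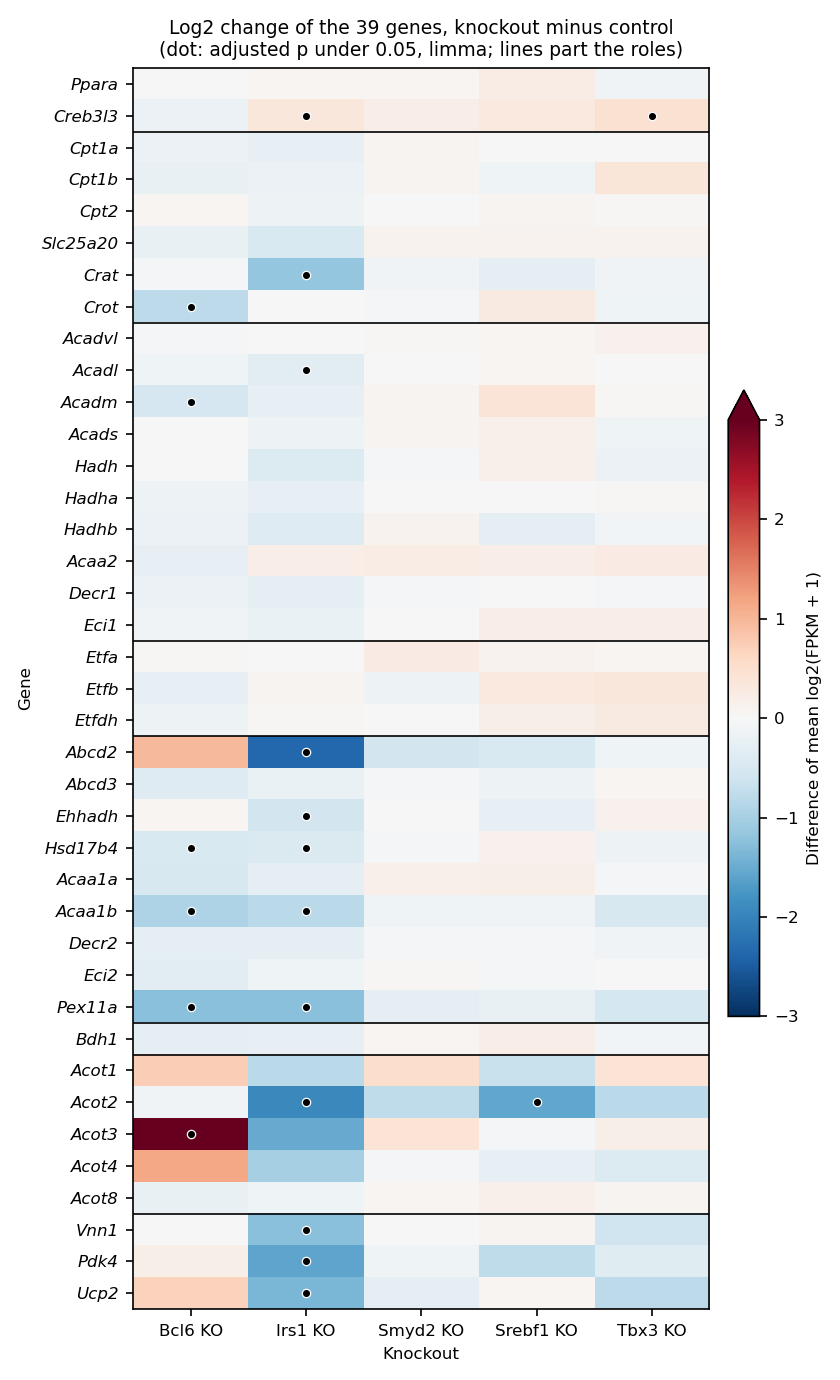
Log2 change of each of the 39 genes (rows, by role) in each knockout relative to the 6 controls (columns), as the difference of mean log2(FPKM + 1). Dots mark an adjusted p under 0.05 (limma): 12 in Irs1 KO, 6 in Bcl6 KO, 1 in Srebf1 KO, 1 in Tbx3 KO and none in Smyd2 KO. The colour scale ends at 3, and Acot3 in Bcl6 KO (3.098) lies past it.

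The 2 libraries that stood apart were picked by their low values of these same genes, and 1 of them is a control. More lower calls without them follow in part from that choice and are no separate support. Leaving both out raised the number of lower genes in Irs1 KO livers to 18, with none higher. Among the 18 were all 11 of the full set. The 7 added were Slc25a20, Hadh, Hadha, Hadhb, Decr2, Acot3 and Acot4. For Bcl6 KO it gave 8 lower, the same 5 with Acaa2, Decr2 and Eci2, and 2 higher, Acot3 and Acot4. In Tbx3 KO livers 1 gene, Vnn1, was then lower, and Smyd2 KO livers still had none in either direction. With both left out, 1697 of all genes tested were called in Irs1 KO, 1181 in Bcl6 KO and 478 in Tbx3 KO. Over all 34 livers these counts were 2094, 1185 and 490. Of the genes called with both left out, 32%, 47.5% and 45% were higher, in that order. The library labelled Srebf1 KO replicate 1 altered no count of members when it was left out. Other single libraries mattered for short counts. The 5 lower genes of Bcl6 KO became 3 without any one of Bcl6 KO replicates 1, 2 and 4, sgGFP replicate 4 and the sgLacZ livers. The 1 higher gene of Bcl6 KO became 2 without any one of Bcl6 KO replicate 2, Irs1 KO replicate 2, Smyd2 KO replicates 3 and 6, Tbx3 KO replicate 6 and sgGFP replicate 4. Without Tbx3 KO replicate 7, Tbx3 KO had 3 higher and 2 lower genes.

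Some markers of liver cell types passed the same test, and their counts read against the shares of all genes called in each knockout, given above (in Irs1 KO livers, 7.61% lower and 3.24% higher). Of 10 hepatocyte markers, 7 were higher in Bcl6 KO livers (summed level 157961 to 216602 FPKM), 6 were higher in Irs1 KO livers (88567 to 123449 FPKM), and 4 were higher and 1 lower in Tbx3 KO livers (84740 to 97350 FPKM), against sums of 76655 to 98990 FPKM in the controls. Of 10 stellate cell and myofibroblast markers, 5 were lower in Irs1 KO livers (597 to 721 FPKM), 3 in Tbx3 KO livers (440 to 1530 FPKM) and 1 in Bcl6 KO livers (738 to 1018 FPKM), against 816 to 1797 FPKM in the controls. Of 10 Kupffer cell and macrophage markers, 2 were lower in Irs1 KO livers (Csf1r and Gpnmb), with overlapping sums of 676 to 1162 FPKM, against 906 to 1835 FPKM in the controls. Of 10 endothelial markers, 4 were higher in Bcl6 KO livers (940 to 1066 FPKM) and 2 lower in Irs1 KO livers (545 to 825 FPKM), against 686 to 897 FPKM in the controls. Of 7 cholangiocyte markers tested, 1 was lower in Bcl6 KO livers (Sox9, with sums of 411 to 1042 FPKM that overlapped the controls) and 1 in Irs1 KO livers (Spp1, with sums of 189 to 500 FPKM, below every control), against 643 to 2979 FPKM in the controls. Of 6 adipocyte markers tested, 2 were higher in Irs1 KO livers (Adrb3 and Pck1, with sums of 4880 to 6813 FPKM), 1 was higher in Tbx3 KO livers (Adrb3, with sums of 2524 to 6629 FPKM) and 1 was lower in Bcl6 KO livers (Cidea, with sums of 2322 to 3303 FPKM), against 1982 to 4391 FPKM in the controls, a range that the Tbx3 KO and Bcl6 KO sums overlapped. Adipoq, Lep and Plin1, which define fat cells, were at 0 in every Irs1 KO liver, as were Retn and Ucp1. The sums there therefore rest on the other genes of the list, Pck1 among them, and do not measure fat cells. Adipoq and Lep were at 0 in every control liver too, whereas Plin1 was not. Erythroid markers had 1 of 5 higher in Irs1 KO (508 to 723 FPKM) and in Srebf1 KO livers (492 to 650 FPKM) and 1 of 5 lower in Bcl6 KO livers (237 to 368 FPKM), against 302 to 472 FPKM in the controls. No lymphocyte or neutrophil marker passed in any knockout. Smyd2 KO replicate 6 and sgGFP replicate 3 had the highest sums of their groups for Kupffer cell (1922 and 1835 FPKM), stellate cell (1456 and 1797 FPKM) and neutrophil markers (93.6 and 124 FPKM). Tbx3 KO replicate 7 had the highest sums of its group for Kupffer cell (2507 FPKM, beside 802 to 993 FPKM in the other Tbx3 KO livers), stellate cell (1530 FPKM), cholangiocyte (1811 FPKM), lymphocyte (74.2 FPKM) and neutrophil markers (126 FPKM). All 10 hepatocyte markers were detected in every group. Of 10 skeletal and heart muscle markers, Ckm, Mb and Myl2 were at 0 in every liver. Of the others, 3 were tested and passed in no knockout. The sums over that list were 0.383 to 107 FPKM in Tbx3 KO livers and 0.655 to 39.3 FPKM in Irs1 KO livers. In the controls they were 0.137 to 22.5 FPKM. In bulk RNA, fewer cells of a type and less RNA per cell cannot be told apart. The part of these cell types in the changes of the 39 genes was not tested.

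Ppara itself did not pass the test in any knockout. Ppara lay at 1654 to 2573 FPKM in Bcl6 KO livers, 1756 to 2687 FPKM in Irs1 KO, 1370 to 2697 FPKM in Smyd2 KO, 2407 to 2813 FPKM in Srebf1 KO and 1481 to 2552 FPKM in Tbx3 KO, against 1528 to 2815 FPKM in the controls. All 5 ranges overlapped that of the controls, and under every setting tried the lowest adjusted p for Ppara was 0.39. Creb3l3, a transcription factor held in the endoplasmic reticulum membrane of hepatocytes, was the one regulator that changed. In Irs1 KO livers Creb3l3 was at 358, 344, 347, 369 and 312 FPKM, and in Tbx3 KO livers at 315 to 440 FPKM (median 410), against 232 to 302 FPKM (median 272) in the controls. Every liver of both knockouts lay above every control. The log2 change of Creb3l3 was 0.47 ± 0.10 (SE) in Tbx3 KO livers (adjusted p = 0.00593) and 0.34 ± 0.11 in Irs1 KO livers (adjusted p = 0.0359; limma). The call in Irs1 KO rested on the full set of livers, since leaving out any of 7 single libraries took it past the threshold, up to an adjusted p of 0.0945 without sgGFP replicate 3. In Bcl6 KO livers Creb3l3 averaged 241 ± 15.4 FPKM (SD, n = 5), against 274 ± 25.3 FPKM in the controls (n = 6), and did not pass the test.

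Among the 6 carnitine shuttle genes, 1 was lower in Irs1 KO livers, where 7.61% of all genes were lower. A different 1 was lower in Bcl6 KO livers, where 3.19% of all genes were. Crat encodes carnitine acetyltransferase, which moves acetyl and other short acyl groups between CoA and carnitine. Its level was 144, 102, 115, 172 and 122 FPKM in Irs1 KO livers, against 245 to 357 FPKM (median 269) in the controls. The groups did not overlap, and Crat fell by 1.17 ± 0.16 (SE) on the log2 scale (adjusted p = 2.76e-05, limma). Crat lies on the minus strand of chromosome 2 (30400471 to 30415813, GRCm38). The antisense genes Dolpp1 and Gm16323 share exon bases with it, and whether the counting used strand is not given in the sources used here. Crot, the peroxisomal carnitine octanoyltransferase that readies shortened fatty acids for export to mitochondria, was at 1262, 1568, 1325, 818 and 1212 FPKM in Bcl6 KO livers, against 1502 to 2982 FPKM (median 1964) in the controls. A single Bcl6 KO liver reached the range of the controls. Crot fell by 0.78 ± 0.17 on the log2 scale in Bcl6 KO (adjusted p = 0.00395), whereas in Irs1 KO livers its level was 2085 ± 195 FPKM (SD, n = 5), beside 2126 ± 530 FPKM in the controls (n = 6).

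The entry steps into mitochondria showed no change past the threshold. Cpt1a averaged 2306 ± 183 FPKM in Irs1 KO livers and 2437 ± 436 FPKM in Bcl6 KO livers (SD, n = 5 each), against 2747 ± 437 FPKM in the controls (n = 6), with an adjusted p of 0.1996 in Irs1 KO. Slc25a20, the translocase that carries acylcarnitines across the inner membrane, was at 73.3 to 106 FPKM in Irs1 KO livers, against 81.8 to 154 FPKM in the controls (log2 change -0.45 ± 0.16, adjusted p = 0.0749), and passed only when sgGFP replicate 3 was left out, alone or together with Smyd2 KO replicate 6. Cpt2, which releases the acyl group inside, lay at 167 to 225 FPKM in Irs1 KO livers and 168 to 274 FPKM in Bcl6 KO livers, against 147 to 257 FPKM in the controls. Cpt1b, at 2.15 to 10.2 FPKM over all livers, passed in no knockout.

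Of the 10 genes of mitochondrial beta-oxidation, 1 was lower in Irs1 KO livers, where 7.61% of all genes were, and 1 was lower in Bcl6 KO livers, where 3.19% were. None passed in Smyd2 KO, Srebf1 KO or Tbx3 KO livers. Without sgGFP replicate 3, 4 of the 10 were lower in Irs1 KO livers (Acadl, Hadh, Hadha and Hadhb). That control was picked by its low values of these same genes, so the added calls are no separate support. The share of 7.61% is from all 34 livers. The Irs1 KO gene was Acadl, the long-chain acyl-CoA dehydrogenase, at 420 to 538 FPKM against 463 to 739 FPKM in the controls (log2 change -0.34 ± 0.11, adjusted p = 0.0313). The Bcl6 KO gene was Acadm, the medium-chain dehydrogenase, at 158 to 278 FPKM against 234 to 353 FPKM in the controls (log2 change -0.49 ± 0.15, adjusted p = 0.0362; limma). Both pairs of groups overlapped, and neither call held under every alternative: scaling each library to the median ratio gave an adjusted p of 0.276 for Acadl and 0.136 for Acadm. In Irs1 KO livers Hadha and Hadhb, the subunits of the trifunctional protein for long chains, had log2 changes of -0.25 ± 0.09 and -0.38 ± 0.14 and did not pass (adjusted p = 0.0829 and 0.0762). Acaa2, the mitochondrial thiolase of the last step, had log2 changes above 0 in 4 knockouts and below 0 in Bcl6 KO, none of which passed against the controls. Acaa2 was at 654 to 920 FPKM in Bcl6 KO livers, against 915 to 1082 FPKM in Irs1 KO livers, 728 to 1196 FPKM in Smyd2 KO livers and 732 to 989 FPKM in the controls. Its p in Smyd2 KO was the next smallest of that comparison after Acot2 (log2 change 0.22 ± 0.10, adjusted p = 0.636). Hadh, the dehydrogenase of short 3-hydroxyacyl chains, was at 216 to 270 FPKM in Irs1 KO livers, against 239 to 415 FPKM in the controls (log2 change -0.42 ± 0.15, adjusted p = 0.0711). The dehydrogenases Acadvl (very long chains) and Acads (short chains), and Decr1 and Eci1, which prepare unsaturated fatty acids, passed in no knockout. Over all 34 livers Acadvl lay at 212 to 331 FPKM, Acads at 53.8 to 92.2 FPKM, Decr1 at 123 to 233 FPKM and Eci1 at 138 to 273 FPKM.

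The genes that take electrons from these dehydrogenases to the respiratory chain, Etfa, Etfb and Etfdh, and the ketone gene Bdh1 passed the test against the controls in no knockout. In Tbx3 KO livers Etfdh was at 356 to 606 FPKM (median 517), against 371 to 481 FPKM (median 422) in the controls, with a log2 change of 0.26 ± 0.09 (SE) and an adjusted p of 0.128. Etfb had a log2 change of 0.33 ± 0.12 there (adjusted p = 0.152), and both passed as higher when Tbx3 KO replicate 7, the lowest Tbx3 KO liver for 19 of the 39 genes, was left out. That liver also had the highest marker sums of its group for 5 other cell types, given above, whose part in these values was not tested. Etfa lay at 127 to 252 FPKM over all 34 livers. Bdh1, which interconverts the ketone bodies acetoacetate and beta-hydroxybutyrate, was at 465 to 651 FPKM in Bcl6 KO livers and 460 to 686 FPKM in Irs1 KO livers, against 612 to 828 FPKM in the controls (log2 changes -0.28 and -0.25, adjusted p = 0.0856 and 0.0930).

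Of the 9 peroxisomal genes, 5 were lower in Irs1 KO livers (Abcd2, Ehhadh, Hsd17b4, Acaa1b and Pex11a), where 7.61% of all genes were lower. All 9 log2 changes were below 0 there, with a median of -0.44, beside a median of -0.12 over all genes. The Bcl6 KO livers had 3 of the 9 lower (Hsd17b4, Acaa1b and Pex11a), where 3.19% of all genes were lower. Of the 9 log2 changes 7 were below 0 in Bcl6 KO livers, with a median of -0.40, beside -0.07 over all genes. In Srebf1 KO, Smyd2 KO and Tbx3 KO livers none of the 9 passed, with medians of -0.11, -0.04 and -0.10.

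Acaa1b encodes a thiolase that ends each round of peroxisomal beta-oxidation. It was at 1962, 2081, 3533, 2132 and 4233 FPKM in Bcl6 KO livers and at 3302, 3217, 2012, 3555 and 2557 FPKM in Irs1 KO livers, against 3934 to 6506 FPKM (median 5045) in the controls. All Irs1 KO livers lay below every control, and 1 Bcl6 KO liver entered the range of the controls. Acaa1b fell by 0.92 ± 0.19 (SE) on the log2 scale in Bcl6 KO (adjusted p = 0.00138) and by 0.80 ± 0.19 in Irs1 KO (adjusted p = 0.00547; limma). Its paralog Acaa1a is 96.0% identical over 1450 aligned transcript bases, so reads may be split between them in a way that is uncertain, and the antisense gene Dlec1 shares exon bases with Acaa1b. Acaa1a had a log2 change of -0.48 ± 0.16 in Bcl6 KO (adjusted p = 0.0781) and did not pass.

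Pex11a, which takes part in the elongation and division of peroxisomes and is a known PPAR-alpha target, was at 349, 574, 804, 467 and 1024 FPKM in Bcl6 KO livers and at 779, 634, 384, 759 and 539 FPKM in Irs1 KO livers, against 1051 to 1979 FPKM (median 1400) in the controls. Neither knockout overlapped the controls. The fall was 1.26 ± 0.27 on the log2 scale in Bcl6 KO (adjusted p = 0.00205) and 1.26 ± 0.27 in Irs1 KO (adjusted p = 0.00253), or to 0.418 and 0.419 times the control level. In Tbx3 KO livers Pex11a was at 694 to 1455 FPKM (median 1072) and did not pass.

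Abcd2, a transporter that brings very long-chain acyl-CoA into peroxisomes, was the peroxisomal gene with the greatest spread. It was at 10.4, 0.951, 5.84, 16.2 and 21.7 FPKM in Irs1 KO livers and at 101, 84.5, 109, 88.3 and 69.3 FPKM in Bcl6 KO livers, against 33.5 to 61.9 FPKM (median 44.4) in the controls. The Irs1 KO livers all lay below the controls and the Bcl6 KO livers all lay above them. Abcd2 fell by 2.36 ± 0.38 on the log2 scale in Irs1 KO (adjusted p = 0.000148), while its log2 change of 0.96 ± 0.38 in Bcl6 KO did not pass (adjusted p = 0.144; limma). The related importer Abcd3, at 674 to 1785 FPKM over all livers, passed in no knockout.

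The multifunctional enzymes of the middle steps followed with smaller changes. Ehhadh, the L-bifunctional enzyme, was at 570, 615, 494, 718 and 626 FPKM in Irs1 KO livers, against 663 to 1041 FPKM (median 910) in the controls (log2 change -0.55 ± 0.15, adjusted p = 0.0182). Ehhadh in Bcl6 KO livers was at 706 to 1259 FPKM. Hsd17b4, the D-bifunctional enzyme, was at 341 to 567 FPKM in Bcl6 KO livers and 383 to 472 FPKM in Irs1 KO livers, against 395 to 712 FPKM in the controls. Its log2 changes were -0.46 ± 0.13 (adjusted p = 0.0340) and -0.44 ± 0.13 (adjusted p = 0.0331), in that order, and both calls were lost under median scaling (adjusted p = 0.145 and 0.196). The Ehhadh call was lost under median scaling (adjusted p = 0.0843) and without Irs1 KO replicate 3 (adjusted p = 0.0593). Decr2 and Eci2, which handle double bonds of unsaturated fatty acids in peroxisomes, passed in no knockout over all 34 livers, at 261 to 546 FPKM for Decr2 and 1238 to 2326 FPKM for Eci2.

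**Figure D3:**
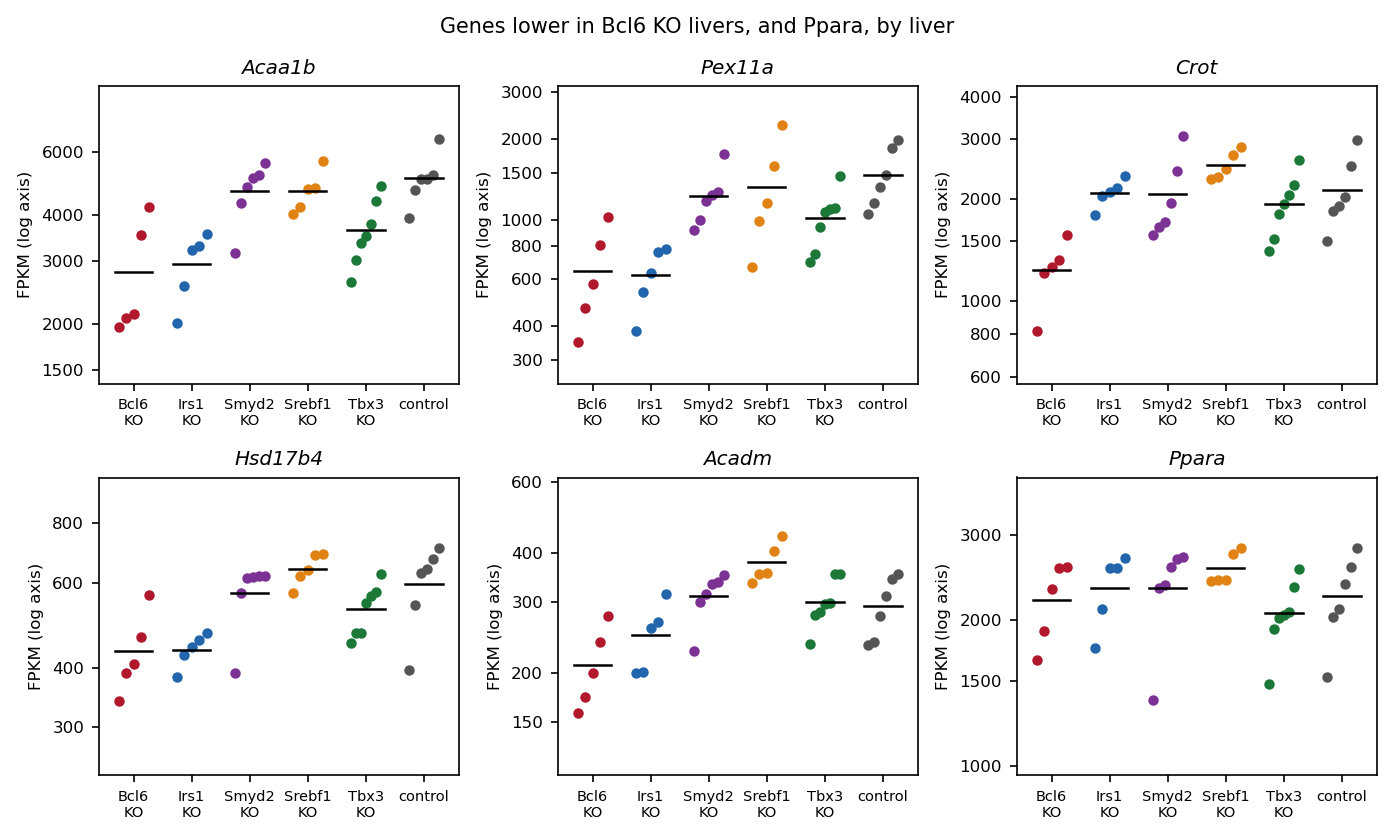
FPKM (log axis) in each liver (points) with the group mean (line) for the 5 genes lower in Bcl6 KO livers, Acaa1b, Pex11a, Crot, Hsd17b4 and Acadm, and for Ppara. Pex11a in the 5 Bcl6 KO livers (349 to 1024 FPKM) lies below all 6 controls (1051 to 1979 FPKM), whereas Ppara overlaps the controls in every knockout.

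The acyl-CoA thioesterases split free fatty acids from CoA, Acot1 in the cytosol, Acot2 in mitochondria and Acot3, Acot4 and Acot8 in peroxisomes. Acot2, Acot1, Acot4 and Acot3 lie in this order on the plus strand of chromosome 12, between positions 83987861 and 84060402 (GRCm38). Acot3 was higher in Bcl6 KO livers while Acot2 was lower in Irs1 KO and Srebf1 KO livers, so the 150 bases before the RefSeq start of each (GRCm38.p6, plus strand, 5′ to 3′) are shown to let them be compared. Capitals mark TGACCT, which is AGGTCA on the minus strand. The regions are chr12:83987711-83987860 for Acot2, chr12:84009352-84009501 for Acot1, chr12:84038229-84038378 for Acot4 and chr12:84051994-84052143 for Acot3.
Acot2: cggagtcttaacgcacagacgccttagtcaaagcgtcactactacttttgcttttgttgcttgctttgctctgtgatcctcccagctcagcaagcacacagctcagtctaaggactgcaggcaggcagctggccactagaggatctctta
Acot1: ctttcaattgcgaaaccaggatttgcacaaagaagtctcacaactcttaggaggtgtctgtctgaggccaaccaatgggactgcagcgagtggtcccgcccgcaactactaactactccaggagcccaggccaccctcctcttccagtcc
Acot4: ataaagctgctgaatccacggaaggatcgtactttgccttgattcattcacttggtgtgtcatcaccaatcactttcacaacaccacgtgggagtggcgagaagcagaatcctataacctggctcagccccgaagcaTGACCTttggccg
Acot3: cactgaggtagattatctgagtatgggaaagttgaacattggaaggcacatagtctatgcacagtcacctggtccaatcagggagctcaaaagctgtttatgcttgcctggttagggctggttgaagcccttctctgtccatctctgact
Within the 250 bases before each start, no pair of these genes shared a run longer than 9 bases. Their transcripts were far more alike: Acot1 and Acot2 were 94.3% identical over 1330 aligned bases, and the other pairs of the 4 were 75.2% to 85.2% identical. Reads may therefore be split between Acot1 and Acot2 in a way that is uncertain. The antisense gene 4732463B04Rik and the same-strand gene Gm49366 also share exon bases with Acot3 and Acot4.

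Acot3 had the highest log2 change of all 39 genes in any knockout. It was at 265, 137, 420, 234 and 174 FPKM in Bcl6 KO livers, against 5.56 to 81.1 FPKM (median 26.9) in the controls. No Bcl6 KO liver overlapped a control, and the log2 change was 3.098 ± 0.595 (SE), an 8.56-fold higher level (adjusted p = 0.000686, limma). Acot4, its neighbour, was at 114, 77.0, 178, 137 and 114 FPKM in Bcl6 KO livers, against 29.5 to 73.4 FPKM (median 56.8) in the controls. Again no liver overlapped, but the log2 change of 1.16 ± 0.37 fell just short of the threshold (adjusted p = 0.0519). Acot4 passed with median scaling and with quantile normalization of the libraries, and without Smyd2 KO replicate 6, among other settings.

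Acot2 showed another order of groups. It was at 24.1, 11.8, 10.6, 22.4 and 17.1 FPKM in Irs1 KO livers and at 17.8, 23.5, 15.6, 25.2 and 29.2 FPKM in Srebf1 KO livers, against 40.3 to 99.7 FPKM (median 72.8) in the controls. Neither knockout overlapped the controls. Acot2 fell by 1.94 ± 0.30 on the log2 scale in Irs1 KO (adjusted p = 0.000108) and by 1.56 ± 0.30 in Srebf1 KO (adjusted p = 0.0137; limma), where it was the only member to pass. Without Srebf1 KO replicate 3 or without sgGFP replicate 1 the Srebf1 KO call was lost (adjusted p = 0.0624 and 0.0538). In Bcl6 KO livers Acot2 was at 34.7 to 110 FPKM and overlapped the controls, unlike Acot3 and Acot4. In Smyd2 KO livers, at 29.2 to 71.7 FPKM (median 35.5), it had the smallest p of the list (log2 change -0.75 ± 0.29, adjusted p = 0.533), and did not pass.

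Acot1 was low everywhere, at 2.81 to 11.9 FPKM in Irs1 KO livers and 12.3 to 39.3 FPKM in Bcl6 KO livers, against 7.37 to 27.6 FPKM in the controls, and it passed against the controls in no knockout. Acot3 and Acot4 in Irs1 KO livers had log2 changes of -1.51 ± 0.60 and -0.99 ± 0.37 (adjusted p = 0.0995 and 0.0776). Both passed when the libraries that stood apart were left out, which had been picked by low values of the members. Irs1 KO replicate 3 had 1.10 FPKM of Acot3 while the other Irs1 KO livers had 11.6 to 14.8 FPKM. Acot8, which lies on chromosome 2 and not in the cluster, was at 35.3 to 154 FPKM over all livers and passed in no knockout.

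**Figure D4:**
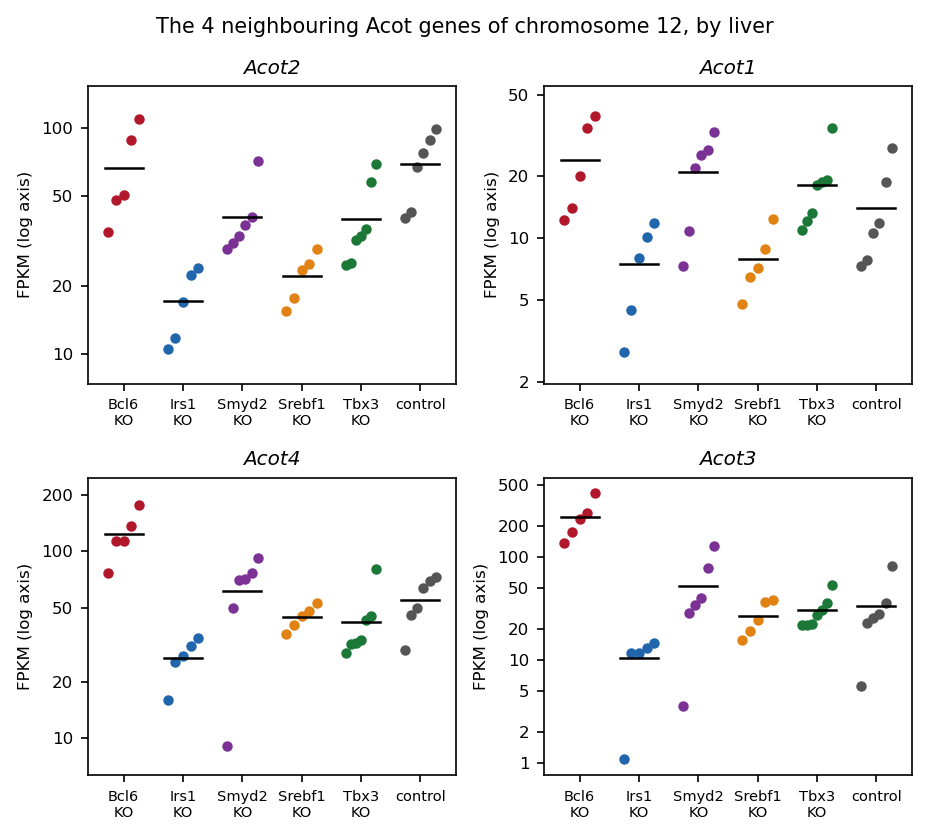
FPKM (log axis) of the 4 neighbouring Acot genes of chromosome 12 in each liver (points) with the group mean (line), in genomic order. The 5 Bcl6 KO livers lie above all controls for Acot4 (77.0 to 178 FPKM) and Acot3 (137 to 420 FPKM), and the Irs1 KO and Srebf1 KO livers lie below all controls for Acot2.

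Promoter sequence was available from RefSeq (GRCm38.p6) for 32 of the 39 genes, as 36 promoters of 250 bases before a start. The PPAR response element AGGTCANAGGTCA, searched on both strands, occurred in 0 of the 36 and in 0.0335% of all 32851 promoters in the table. A looser form, AGGNCANAGGNCA, which includes the first, occurred in 0 of the 36 and in 0.338% of all promoters. The single repeat AGGTCA occurred in 5 of the 36 (13.9%), those of Acadm, Acadvl, Acot4, Cpt1a and Creb3l3, and in 14.0% of all promoters, so its share among the members was that of promoters at large. Acadm and Creb3l3 are the 2 of these genes that passed the test against the controls, and 30 bases around the match are shown for each, with AGGTCA or its reverse complement TGACCT in capitals, at chr3:153944864-153944893 for Acadm and chr10:81092776-81092805 for Creb3l3 (both minus strand).
Acadm: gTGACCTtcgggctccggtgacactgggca
Creb3l3: taagtaggggagAGGTCAcacagacccgac
The core TTCNNNGAA, common to STAT and BCL6 binding sites and chosen after the values were seen, occurred in 3 of the 36 (8.33%; Cpt2, Hadha and Hadhb) and in 7.02% of all promoters. The windows are short, and no match says only that the letters are not in them.

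The remaining PPAR-alpha targets, Vnn1, Pdk4 and Ucp2, were all lower in Irs1 KO livers and passed in no other knockout. Vnn1 encodes vanin-1, a pantetheinase of the cell surface. It was at 115, 124, 149, 204 and 216 FPKM in Irs1 KO livers, against 280 to 523 FPKM (median 373) in the controls. The groups did not overlap, and Vnn1 fell by 1.26 ± 0.21 (SE) on the log2 scale (adjusted p = 0.000221, limma). Ucp2, a carrier of the inner mitochondrial membrane, was at 62.0, 49.1, 69.8, 66.5 and 67.5 FPKM in Irs1 KO livers, against 115 to 245 FPKM (median 167) in the controls. It fell by 1.36 ± 0.27 (adjusted p = 0.00132), again with no overlap. The 5 Irs1 KO livers were close to each other. Ucp2 shares exon bases with the antisense gene Dnajb13.

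Pdk4, the kinase that shuts off pyruvate dehydrogenase and so spares glucose when fat is burned, was at 8.82, 3.87, 4.98, 7.23 and 7.16 FPKM in Irs1 KO livers, against 16.1 to 27.9 FPKM (median 19.5) in the controls. It fell by 1.59 ± 0.39 (adjusted p = 0.00796), with no overlap. In Tbx3 KO livers 5 of the 7 values of Pdk4 were at 8.22 to 13.4 FPKM and those of replicates 6 and 7 were at 38.3 and 57.6 FPKM, a spread wider than that of the controls. Ucp2 and Vnn1 in Tbx3 KO livers had log2 changes of -0.79 ± 0.25 and -0.59 ± 0.19 (adjusted p = 0.0750 and 0.0966). Without Tbx3 KO replicate 7 Ucp2 and Acot2 passed as lower in Tbx3 KO, and without Smyd2 KO replicate 6 Vnn1 did.

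Whether the knockouts differed from one another was tested with an F test over the 5 knockouts in the same fit, which the controls do not enter except through the shared estimate of spread. It called 23 of the 39 genes, where 14.5% of all genes tested were called. The larger SE of all genes, given above, limits this comparison too. The 6 with the smallest p were Abcd2 (adjusted p = 5.17e-06), Ucp2 (1.49e-05), Crat (1.64e-05), Acot3 (4.45e-05), Vnn1 (5.86e-05) and Creb3l3 (0.000496; limma). The direct contrast with the most members called was that of Bcl6 KO with Srebf1 KO (16), followed by Bcl6 KO with Irs1 KO (13). In Bcl6 KO against Irs1 KO livers 10 genes were higher and 3 lower, where 6.59% and 4.74% of all genes were. The 10 were Crat, Abcd2, Ehhadh, Acot1, Acot2, Acot3, Acot4, Vnn1, Pdk4 and Ucp2, and the 3 were Creb3l3, Crot and Acaa2.

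The difference between these knockouts was 4.61 ± 0.62 (log2, SE) for Acot3, 3.33 ± 0.40 for Abcd2, 2.15 ± 0.38 for Acot4, 2.06 ± 0.28 for Ucp2 and 1.83 ± 0.32 for Acot2 (adjusted p from 2.15e-07 to 0.000172). Acaa1b, Pex11a and Hsd17b4, which were lower than the controls in both, were not among the genes that differed. Irs1 KO livers were lower than Smyd2 KO livers for 12 genes (3.22% of all genes), than Srebf1 KO livers for 7 (1.19%) and than Tbx3 KO livers for 5 (1.63%), with Crat and Abcd2 in each of these contrasts. No member was higher in them by limma, where 1.04%, 0.415% and 1.19% of all genes were. No member differed between any pair of Smyd2 KO, Srebf1 KO and Tbx3 KO livers by limma, where 0.0777%, 0.902% and 0.943% of all genes did.

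Several genes differed in Bcl6 KO livers from every other knockout. Crot was lower in Bcl6 KO than in each of the other 4 knockouts, with log2 differences of -0.65 ± 0.17 against Tbx3 KO to -1.05 ± 0.18 against Srebf1 KO (adjusted p from 0.000158 to 0.0108). Creb3l3 was lower likewise, with differences of -0.37 ± 0.11 against Smyd2 KO to -0.65 ± 0.10 against Tbx3 KO (adjusted p from 4.54e-05 to 0.0315), as was Acaa2, with differences of -0.44 to -0.48 (adjusted p from 0.00150 to 0.00732). Acot3 and Acot4 were higher in Bcl6 KO than in each of the other 4 knockouts, Acot3 by 2.70 ± 0.60 against Smyd2 KO to 4.61 ± 0.62 against Irs1 KO. Counts for Bcl6 KO were 4 higher and 8 lower against Smyd2 KO (2.80% and 3.03% of all genes), 5 higher and 11 lower against Srebf1 KO (4.08% and 4.69%), and 3 higher and 6 lower against Tbx3 KO (4.27% and 5.04%).

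**Figure D5:**
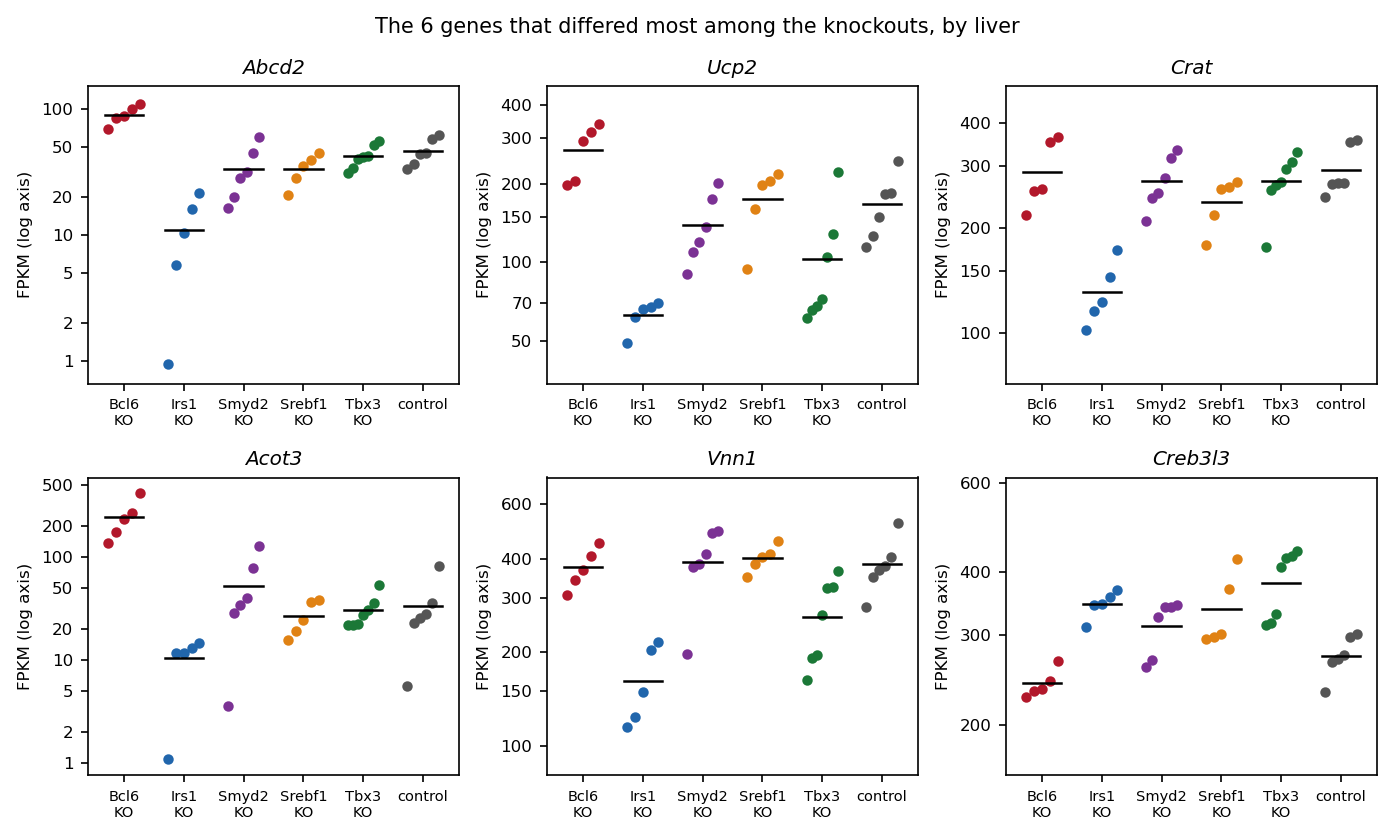
FPKM (log axis) in each liver (points) with the group mean (line) for the 6 genes with the smallest p in the F test among the 5 knockouts. Abcd2 and Acot3 lie above all controls in the Bcl6 KO livers, Abcd2, Ucp2, Crat and Vnn1 lie below all controls in the Irs1 KO livers, and Creb3l3 lies above all controls in the Irs1 KO and Tbx3 KO livers.

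A wider set of 90 genes of the same pathway, outside the 39, gave 88 that could be tested. In Irs1 KO livers 14 were lower and 5 higher, in Bcl6 KO livers 9 lower and 3 higher, in Tbx3 KO livers 3 lower, in Srebf1 KO livers 1 lower and in Smyd2 KO livers none (limma, against the same shares of all genes as above). The uptake receptor Cd36 averaged 1050 ± 372 FPKM in Irs1 KO livers (SD, n = 5), against 2968 ± 381 FPKM in the controls (n = 6; log2 change -1.56 ± 0.18 SE, adjusted p = 2.82e-06). Cd36 was lower in Tbx3 KO livers too, at 1996 ± 475 FPKM (SD, n = 7, log2 change -0.60, adjusted p = 0.0437, limma). That Tbx3 KO call was lost without any 1 of 12 libraries. Pparg, the PPAR that drives fat storage, averaged 109 ± 44.2 FPKM in Irs1 KO livers (n = 5) and 158 ± 64.9 FPKM in Tbx3 KO livers (n = 7), against 314 ± 101 FPKM in the controls (log2 changes -1.55 ± 0.25 and -1.02 ± 0.23, adjusted p = 0.000180 and 0.0124). Aldh3a2, a fatty aldehyde dehydrogenase, was lower in Irs1 KO and Tbx3 KO livers (log2 changes -0.99 ± 0.16 and -0.62 ± 0.15, adjusted p = 0.000156 and 0.0159), and in Bcl6 KO livers (-0.51 ± 0.16, adjusted p = 0.0478). With the 2 groups alone, the Tbx3 KO calls of Cd36, Pparg and Aldh3a2 were all lost. Those of Cd36 and Pparg were also lost with sgGFP alone as control. Among 13 PPAR partners and coactivators 2 were higher and 1 lower in Irs1 KO livers, and among 18 other oxidation enzymes 3 were higher and 2 lower. Among 7 genes of ketone synthesis, use and transport 4 were lower there and none was higher. Named after their values were seen, they included Oxct1, which lets tissues use ketone bodies (log2 change -1.04 ± 0.31), and the monocarboxylate transporters Slc16a1 (-0.79 ± 0.19) and Slc16a7 (-1.06 ± 0.18; adjusted p from 0.000284 to 0.0256). Oxct1 was low, with means of 5.52 FPKM in Irs1 KO livers and 12.5 FPKM in the controls, and so rests on few reads. Which cells its RNA came from was not tested.

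In Bcl6 KO livers Scp2, which encodes a peroxisomal thiolase and a sterol carrier protein, averaged 2462 ± 646 FPKM (SD, n = 5), against 4913 ± 860 FPKM in the controls (n = 6; log2 change -1.02 ± 0.13 SE, adjusted p = 1.12e-06). Hacl1, the lyase of peroxisomal alpha-oxidation, was higher there, at 344 ± 79.2 FPKM against 114 ± 56.1 FPKM in the controls (log2 change 1.68 ± 0.31, adjusted p = 0.000448). Slc16a6, whose product exports ketone bodies from hepatocytes in zebrafish, was higher as well, at 146 ± 45.9 FPKM with a range of 85.9 to 211 FPKM, against 36.7 to 66.7 FPKM in the controls (log2 change 1.496 ± 0.22, adjusted p = 1.95e-05; limma). The peroxisomal calls in Bcl6 KO livers were thus not all in 1 direction. In Srebf1 KO livers Acsl5, an acyl-CoA synthetase, was at 957 ± 150 FPKM against 1552 ± 359 FPKM in the controls (log2 change -0.68 ± 0.15, adjusted p = 0.0298), and it was lower in Irs1 KO livers too (-0.74 ± 0.15, adjusted p = 0.00150). The Srebf1 KO call of Acsl5 was lost without any 1 of 8 libraries (adjusted p up to 0.103, limma). It was also lost with sgGFP alone as control and with the 2 groups alone (adjusted p up to 0.125, limma). Of the 20 genes of peroxisome biogenesis and transport, 2 were lower in Irs1 KO and 1 was lower in Bcl6 KO livers. Of all genes tested, 7.61% and 3.19% were lower there, so both counts are near those shares. The median log2 change of the 20 was 0.01 in Irs1 KO and -0.12 in Bcl6 KO livers.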

How the data were processed

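The deposited table gives FPKM per gene symbol and liver, made by the authors, and no counts. Reads were counted with featureCounts 1.6.4, per the submitters' processing notes, which name the builds mm10 and GRCh38 with no role. Which aligner and annotation were used, and whether counting used strand, is not given in the sources used here. Libraries came from total RNA (SMARTer Stranded Total RNA kit), per the labels' protocols. Low FPKM values fell on whole reads, which gave the implied depth of 2114037 to 3128827 reads per library, with a median of 2606822. At this depth a gene of a few FPKM rests on few reads.

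A gene was kept where 5 or more libraries reached an FPKM of 1 (19295 of 35976). limma 3.58.1 (R 4.3.3) was fitted to log2(FPKM + 1) over all 34 livers with 6 levels, sgGFP and sgLacZ pooled as control, with an intensity trend. Tests were two-sided, with Benjamini-Hochberg adjustment over all genes tested. A fold change on the log2(FPKM + 1) scale understates the change of low genes. The script was tested on simulated data. Python 3.11.15, pandas 2.3.3, numpy 2.4.6, matplotlib 3.10.9 and Biopython 1.88 were used for tables, figures and sequences. Positions are on GRCm38.

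All members were named. Values per liver were given for Ppara, for up to 6 members per comparison by smallest adjusted p (the 2 smallest p where none passed) and for the first 6 of the F test. Up to 3 other pathway genes were named per comparison. Some genes are not reported here. Members and lists were chosen with earlier results of these data known. The livers were taken as separate animals from the numbering of the labels, so each p-value reflects only how far these samples vary, which may in part be technical.

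Alternatives were a pseudocount of 0.1, no filter, a filter at an FPKM of 5, median scaling, quantile normalization, sgGFP alone as control, the 2 groups alone, the replicate number as a block, and leaving out each library. Leaving out Smyd2 KO replicate 6 together with sgGFP replicate 3 was chosen after seeing the data, by the values of the members themselves.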

Additional observations from a re-analysis of the deposited data

Results flagged for a closer look

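In 25 of 234 sets of livers (39 genes in 6 groups), 1 liver stood far from the others of its group by Dixon's test. Chance gives about 1 in 20 such sets. The 39 genes were measured in the same livers, so the sets are not independent and their count cannot be judged against this rate.

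Most of these were the lowest liver of Smyd2 KO, replicate 6. It was at 1370 FPKM for Ppara where the other Smyd2 KO livers were at 2327 to 2697 FPKM. Its acyl-CoA dehydrogenases were low too, with 476 FPKM for Acadl and 227 FPKM for Acadm. The same held for Hadh (187 FPKM), Hadha (291 FPKM) and Decr1 (125 FPKM) of mitochondrial beta-oxidation. Etfa (140 FPKM) and Etfdh (339 FPKM) of electron transfer were low as well, as were the peroxisomal genes Abcd3 (674 FPKM), Hsd17b4 (390 FPKM) and Decr2 (261 FPKM). Acot4 was at 9.05 FPKM in this liver where the others were at 49.5 to 92.7 FPKM, and Vnn1 was at 197 FPKM where the others were at 378 to 491 FPKM. Among the controls, sgGFP replicate 3 was lowest for Acadvl (227 FPKM), Hadha (289 FPKM) and Decr1 (138 FPKM).

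Tbx3 KO replicate 7 was lowest of its group for Acadvl (212 FPKM) and Etfdh (356 FPKM), and Tbx3 KO replicate 5 was lowest for Crat (176 FPKM). Bcl6 KO replicate 5 was highest of its group for Acadl (643 FPKM) and Eci2 (1465 FPKM). Smyd2 KO replicate 2 was highest for Acot2 (71.7 FPKM) and Pdk4 (37.1 FPKM). Srebf1 KO replicate 2 was lowest for Bdh1 (750 FPKM), and Irs1 KO replicate 3 was lowest for Acot3 (1.10 FPKM). The cause was not tested in any of these livers.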

How the results depend on the processing

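No result reversed under the alternatives tried. Of 32 results on single genes, 30 passed the threshold. In Irs1 KO the calls of Crat, Acot2, Abcd2, Vnn1, Ucp2, Pex11a, Acaa1b and Pdk4 held under all 9 alternatives and without each library, as did those of Acot3, Acaa1b, Pex11a and Crot in Bcl6 KO. Lower members in Bcl6 KO numbered 3 with median scaling, quantile normalization, sgGFP alone or the 2 groups alone, and 8 without Smyd2 KO replicate 6 and sgGFP replicate 3. Higher members in Bcl6 KO numbered 2 with the filter at an FPKM of 5, either scaling or that pair left out, and 3 with the 2 groups alone. In Irs1 KO the pair left out gave 18 lower and 0 higher, where 1697 of all genes tested were called. In Tbx3 KO higher members numbered 0 with the 2 groups alone, and lower members 1 with quantile normalization, sgGFP alone or the pair left out. The 1 lower member of Srebf1 KO was lost (0) with the 2 groups alone. Genes called over the whole table numbered 750 in Bcl6 KO, 10 in Srebf1 KO and 96 in Tbx3 KO with the 2 groups alone, 178 in Srebf1 KO and 15 in Smyd2 KO with sgGFP alone, and 36 in Srebf1 KO with the pair left out. The cause was not tested.

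Leaving out 1 library at a time gave 774 to 1298 genes in Bcl6 KO with 1 to 2 members higher and 3 to 6 lower. It gave 1422 to 2431 genes in Irs1 KO with 0 to 1 higher and 8 to 16 lower. It gave 0 to 4 genes in Smyd2 KO, 14 to 121 in Srebf1 KO with 0 to 1 members lower, and 257 to 1473 in Tbx3 KO with 1 to 3 higher and 0 to 2 lower. The F test called 20 to 26 members.

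Livers with the same replicate number did not deviate together (81 pairs, median r = -0.00244, range -0.179 to 0.162). The replicate block gave 133 genes in Srebf1 KO and 1931 in Tbx3 KO, with 4 members higher and 2 lower in Tbx3 KO. Only Tbx3 KO has a replicate 7, so the block gives that liver a term of its own. This takes the liver out of the Tbx3 KO contrast. Leaving out that liver alone gave 3 members higher and 2 lower, so for Tbx3 KO the block is no separate check. At this depth, levels of a few FPKM (Cpt1b, Acot1, Pdk4, and Abcd2 and Acot3 in Irs1 KO) are the least certain.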
